A study of Mus musculus with 27 samples.

Results

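Ciita and the genes of the major histocompatibility complex (MHC) class II pathway were followed through CT26 tumors in which an enzyme of RNA methylation had been knocked out. The 10 genes were Ciita, H2-Aa, H2-Ab1, H2-Eb1, H2-DMa, H2-DMb1, H2-DMb2, Cd74, H2-Oa and H2-Ob. They were chosen by name, with symbols matched to the Ensembl identifiers of the deposited count tables, and all 10 were found among 54752 genes. CT26 is a transplantable mouse colon carcinoma line, grown here under the skin of BALB/c mice. The cells had received a control guide RNA, a guide against Mettl3 or a guide against Mettl14 before they were inoculated, and according to the series design every group was given anti-PD-1, an antibody that frees T cells from a checkpoint. The treatment protocol also names anti-CTLA-4 and a control IgG, and no sample label says which antibody a tumor received. Mettl3 and Mettl14 form the complex that writes N6-methyladenosine on messenger RNA. The tumor as a whole was sequenced, so host leukocytes and stroma, which did not receive a guide, contributed RNA beside the cancer cells. Neither the mice's age nor whether the edited cells were 1 clone is given in the labels, and no label links a library to a mouse, so what the p-values reflect is the variation among these libraries, which may be technical.

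Class II molecules display peptides taken up from outside the cell to CD4+ T cells. Each is a pair of an alpha and a beta chain (H2-Aa with H2-Ab1, and H2-Eb1 with the E alpha chain) that is assembled on the invariant chain Cd74. In late endosomes the H2-DM heterodimer exchanges the remnant of Cd74 for a peptide, and the H2-DO heterodimer restrains H2-DM. Dendritic cells, B cells and macrophages express the pathway constitutively or on activation, and many other cells, tumor cells included, switch it on when interferon-gamma induces Ciita. CIITA binds no DNA itself: it docks on a set of factors, the class II enhanceosome, that is bound to a conserved pair of promoter elements called the X box and the Y box.

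Those elements are shown first, for the genes in which they were found. RefSeq start site windows of GRCm38.p6 run from 250 bases before to 50 bases after a start. Windows of 7 of the 10 genes were examined here, and none of Ciita, H2-Ab1 and Cd74. Whether these 3 genes have the elements is therefore not given. The letters searched on both strands were AAC, any 3 bases, TGA, any 1 base and G for the X box, and TGATTGG, the reversed CCAAT sequence that NF-Y binds, for the Y box. They were chosen after the sequences had been seen. Of all 32851 windows, 2.88% held the first, 7.82% the second, and 7 (0.0213%) held the X box 15 to 25 bases before the Y box on the same strand. Those 7 windows belonged to H2-DMb1, H2-DMb2, H2-Eb1, H2-Ob, Cic, BC051142 and 1700048F04Rik. H2-Aa had the Y box behind a TGACGTCA palindrome, a sequence that CREB family proteins bind, as they do the X2 part of the X box, and that 1.79% of windows held. The stretches below run 5′ to 3′ on the strand of the gene, from 55 bases before to 15 bases after the Y box, with the matches in capitals.
H2-Eb1, chr17:34305751-34305827, plus strand: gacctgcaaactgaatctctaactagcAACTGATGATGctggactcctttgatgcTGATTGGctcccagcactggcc
H2-DMb2, chr17:34145102-34145178, plus strand: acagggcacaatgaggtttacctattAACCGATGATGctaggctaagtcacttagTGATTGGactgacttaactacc
H2-Ob, chr17:34238791-34238867, plus strand: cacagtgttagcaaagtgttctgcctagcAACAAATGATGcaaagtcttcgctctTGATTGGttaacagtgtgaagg
H2-Aa, chr17:34287852-34287928, minus strand: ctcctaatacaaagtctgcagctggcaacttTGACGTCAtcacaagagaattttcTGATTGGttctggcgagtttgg

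The 2 boxes were 17 bases apart in H2-Eb1, 18 in H2-DMb2 and 15 in H2-Ob. The Y box began 61, 92 and 59 bases before the start site in these genes and 50 bases before it in H2-Aa. H2-DMb1 had the pair with 63 bases from the Y box to the start, H2-Oa had a Y box alone at 45 bases, and neither of the windows of H2-DMa held any of these letters. A match describes the letters only. No binding was measured.

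Of 27 samples in the series, the 15 RNA-seq libraries, 5 a group, were used, and the 12 m6A immunoprecipitation and input libraries were not used here. The libraries held 4354273 to 20978633 reads counted on genes. Reads outside genes made up 44.3% to 78.6% of uniquely aligned reads, and the highest share was in control replicate 1, with 44.3% to 53.8% in the other controls. Over 1457 olfactory and vomeronasal receptor genes, which a tumor should hardly express, 0.505 to 5.45 reads fell per kilobase, again most in control replicate 1. These signs of library quality moved with the group: Mettl3 KO had 60.2% to 77.98% of reads outside genes, 1.96 to 3.76 background reads per kilobase and 4354273 to 9332032 gene counts, where control replicates 2 to 5 had at most 2.35 background reads per kilobase and at least 12547517 gene counts. This density is used below as the background a gene would collect by its length. All 5 controls were kept, and results that turn on control replicate 1 are also given without it. Mettl3 RNA stood at 19.5 ± 3.59 CPM, read counts scaled to a common library size (SD, n = 5), in controls and 13.8 ± 1.45 in Mettl3 KO, and Mettl14 RNA at 69.5 ± 11.7 in controls and 61.6 ± 12.4 in Mettl14 KO. The ranges overlapped in both cases, and a guide need not lower the RNA of its target. In the Mettl14 group the genotype entry reads Mettl4, and the group is called Mettl14 KO here after its titles and its column names.

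In Mettl3 KO tumors, Ciita and the H2-DM genes were higher than in control tumors. The class II chains and Cd74 lay as far above control but did not pass the threshold. In Mettl14 KO tumors the means were of similar height, and the tumors differed more widely from one another for most of these genes. No gene of the 10 passed there, nor did any of the 21555 genes tested. Levels are CPM after TMM scaling, which evens out library composition, and a gene was called when its adjusted p in the edgeR quasi-likelihood test (Benjamini-Hochberg over all genes tested) was under 0.05. For Mettl3 KO, 266 of 21427 genes were called (1.24%), 87 of them higher (0.406%), and 4 of the 9 class II genes tested were among these 87. With another scaling the split turned, to 72 higher and 28 lower with RLE and 106 and 16 with library totals, but the same 4 class II genes were called. None was called with all 15 libraries in 1 fit or without control replicate 2, and 9 were called without control replicate 1, where 11625 of 22535 genes passed. With the background density subtracted from every count, an alternative chosen after seeing the data, these 4 genes and Cd74 were called among 8 tested. The median log2 fold change of the 9 was 2.51, beside -0.14 over all genes tested. H2-Oa was too low to be tested. In the Mettl3 KO fit 6918 genes had an unadjusted p under 0.05, and values just above the threshold were not particular to class II genes. The macrophage marker Fcgr1 and the T cell marker Lck had the same edgeR adjusted p as H2-Ab1, 0.0524. Under 19 other settings H2-Aa, H2-Ab1 and H2-Eb1 were called in 4 each and Cd74 in 5.

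Ciita, the master switch of the class (chromosome 16, 10480059 to 10528418, mm10), was counted at 13.1, 5.03, 12.9, 11.8 and 3.12 CPM in control replicates 1 to 5. The Mettl3 KO replicates had 106, 46.1, 42.3, 65.7 and 61.1 CPM, and the Mettl14 KO replicates 90.0, 65.5, 19.5, 124 and 12.2 CPM. Every Mettl3 KO tumor was above every control, and in Mettl14 KO replicates 1, 2 and 4 were high while replicate 5 was inside the control range. The log2 fold change was 2.77 for Mettl3 KO (SE 0.42, 6.84-fold, edgeR adjusted p = 0.0194). For Mettl14 KO it was 2.70 (SE 0.62, edgeR adjusted p = 0.180), and Ciita did not pass. In control replicate 1 Ciita had 81 reads where the background density gives 52.0, so most of that library's value could be background, whereas Mettl3 KO replicate 1 had 463 reads for an expected 33.7. Ciita kept its call in Mettl3 KO under 17 of 19 other settings. It lost it with all 15 libraries in 1 fit and without control replicate 2, where adjusted p reached at most 0.0567.

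H2-Aa and H2-Ab1 encode the chains of the A molecule. H2-Aa (chromosome 17, 34282744 to 34287823) stood at 10.2, 14.2, 104, 61.8 and 11.9 CPM in the controls, at 551, 165, 128, 185 and 167 in Mettl3 KO, and at 291, 238, 56.7, 889.7 and 20.7 in Mettl14 KO. Control replicates 3 and 4 were several times above the other 3 controls, and Mettl3 KO replicate 1 was far above the other Mettl3 KO tumors. H2-Ab1 (34257689 to 34269419) was likewise highest in control replicate 3, Mettl3 KO replicate 1 and Mettl14 KO replicate 4, with 7.30 to 78.0 CPM in controls, 121 to 605 in Mettl3 KO and 23.0 to 573 in Mettl14 KO. For Mettl3 KO the groups did not overlap for either gene, and the log2 fold changes were 2.51 for H2-Aa (SE 0.70, edgeR adjusted p = 0.0554) and 2.97 for H2-Ab1 (SE 0.73, edgeR adjusted p = 0.0524). For Mettl14 KO they were 2.81 (SE 0.94) and 2.85 (SE 0.85), with edgeR adjusted p of 0.293 and 0.249. Single tumors moved these values: without control replicate 3 they were 3.36 and 3.82 for Mettl3 KO and 3.55 and 3.61 for Mettl14 KO, and without Mettl14 KO replicate 4 they were 1.87 and 2.21.

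H2-Eb1, the beta chain of the E molecule (chromosome 17, 34305867 to 34316674), had the widest range of the 10 genes within Mettl14 KO. Controls had 5.35, 6.49, 74.2, 39.8 and 6.70 CPM, Mettl3 KO tumors 427, 136, 104, 147 and 126, and Mettl14 KO tumors 239.7, 195, 40.1, 668 and 13.9. Mettl14 KO replicate 4 was 48.0-fold above replicate 5, and both Mettl14 KO replicates 3 and 5 fell within the control range. The log2 fold change was 2.77 for Mettl3 KO (SE 0.76, edgeR adjusted p = 0.0547) and 3.04 for Mettl14 KO (SE 1.01, edgeR adjusted p = 0.292). Without control replicate 3 these were 3.75 and 3.92, and without Mettl14 KO replicate 4 the latter was 2.16. The partner of H2-Eb1, the E alpha chain, is a pseudogene in the C57BL/6 reference, where its promoter is deleted, and an expressed gene in BALB/c. Its row in the tables, H2-Ea-ps, had 4.38 to 64.5 CPM in controls, 68.5 to 289 in Mettl3 KO and 9.24 to 468 in Mettl14 KO, and differed by 2.43 on the log2 scale in Mettl3 KO (SE 0.74, edgeR adjusted p = 0.0622). Reads were aligned to that reference although the tumors came from another MHC haplotype. How many reads of the polymorphic chains this lost was not tested.

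Cd74, the invariant chain (chromosome 18), was the most abundant of the 10. Its controls stood at 25.1, 34.5, 263, 159 and 30.8 CPM, the Mettl3 KO tumors at 1128, 466, 321, 521 and 527, and the Mettl14 KO tumors at 738, 631, 203, 1545 and 64.5. Controls 3 and 4 were again the high ones, and Mettl14 KO replicates 3 and 5 lay below control replicate 3. The log2 fold change was 2.48 in Mettl3 KO (SE 0.67, edgeR adjusted p = 0.0535) and 2.57 in Mettl14 KO (SE 0.85, edgeR adjusted p = 0.291). Without control replicate 3 these were 3.33 and 3.31, and without Mettl14 KO replicate 4 the latter was 1.97.

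**Figure D1:**
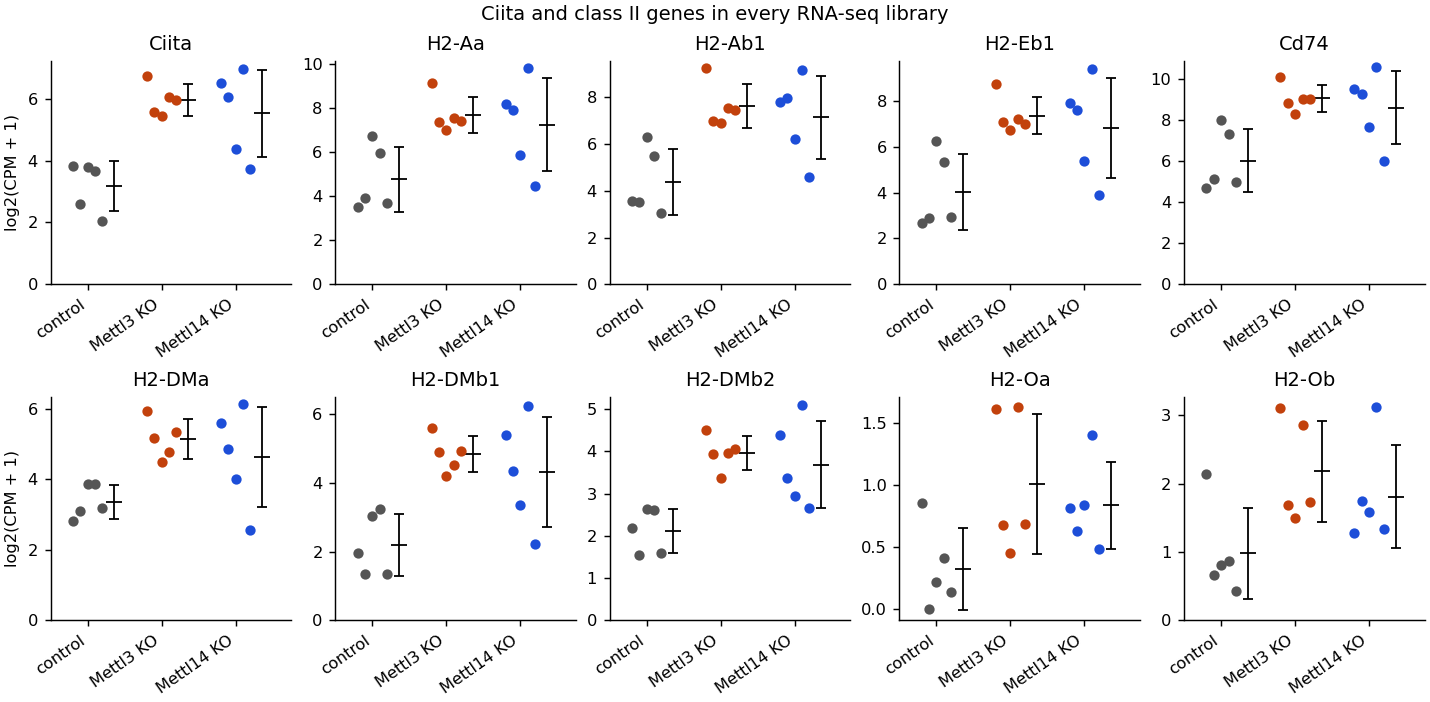
Levels of the 10 genes in each of the 15 RNA-seq libraries, as log2(CPM + 1) on the vertical axis of each panel, with 1 point a library (replicates 1 to 5 from left to right in each group) and the mean ± SD beside it. The 5 Mettl3 KO points lie above all controls in every panel except H2-Oa and H2-Ob, while the Mettl14 KO points are widely spread and reach into the control range in most panels, H2-DMb2 excepted.

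The 3 genes of the H2-DM peptide editor rose in Mettl3 KO, with smaller standard errors than the class II chains. H2-DMa, its alpha chain (chromosome 17, 34119541 to 34139101), was at 6.0, 7.55, 13.6, 13.7 and 8.16 CPM in controls, at 61.1, 35.3, 21.5, 26.7 and 39.8 in Mettl3 KO, and at 47.8, 28.3, 15.1, 70.3 and 4.87 in Mettl14 KO. It rose in Mettl3 KO by 1.84 on the log2 scale (SE 0.31, edgeR adjusted p = 0.0266). Mettl14 KO replicate 5 was below every control. H2-DMb1 (34153072 to 34160230), a beta chain, was at 1.55 to 8.50 CPM in controls, 17.3 to 47.1 in Mettl3 KO and 3.66 to 74.3 in Mettl14 KO. Its log2 fold change in Mettl3 KO was 2.65 (SE 0.48, edgeR adjusted p = 0.0368). H2-DMb2 (34143307 to 34151555), the second beta chain gene, was at 1.94 to 5.26 CPM in controls, 9.37 to 21.8 in Mettl3 KO and 5.28 to 33.4 in Mettl14 KO, and its log2 fold change in Mettl3 KO was 2.02 (SE 0.34, edgeR adjusted p = 0.0269). Of the 75-base words in their transcripts, 15.8% of those of H2-DMb1 were shared with H2-DMb2, so part of the reads of these neighbours cannot be told apart. H2-DMa shares 360 exon bases with Brd2, and 7.46% of its words. The calls of the 3 genes depended on single libraries: none was kept without control replicate 2, H2-DMb1 was also lost without any 1 of the 5 Mettl3 KO tumors or control replicate 5, H2-DMa without Mettl3 KO replicate 2 or 5 or control replicate 5, and H2-DMb2 without Mettl3 KO replicate 1, 2, 4 or 5.

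In Mettl14 KO the H2-DM genes were not called, although log2 fold changes were 1.70 for H2-DMa (SE 0.54), 2.67 for H2-DMb1 (SE 0.75) and 1.99 for H2-DMb2 (SE 0.51). Their edgeR adjusted p-values were 0.270, 0.237 and 0.214, and without Mettl14 KO replicate 4 the value of H2-DMb1 was 2.02. H2-DMb2 was the only one of the 10 genes whose Mettl14 KO tumors were all above all controls, by a margin of 5.28 against 5.26 CPM, where 0.682% of the genes tested in that comparison had such a separation upward.

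The H2-DO genes, which are typical of B cells and some dendritic cells, were the lowest of the 10, with few reads above the background in most libraries. H2-Oa (chromosome 17, 34092340 to 34095234), the alpha chain, had 0 to 6 reads in controls, 2 to 11 in Mettl3 KO and 4 to 21 in Mettl14 KO. That is 0 to 0.811, 0.368 to 2.1 and 0.406 to 1.66 CPM. The background density gives 0.710 to 7.67 reads for its length, and Mettl14 KO replicates 1 and 4 were the farthest above it, with 13 reads where 2.54 are given and 21 where 3.17 are given. No read was counted in control replicate 2, which allows up to 0.290 CPM at 3 reads. H2-Oa shares 321 exon bases with BC051537. It was under the filter of the fit in both comparisons, and a two-sided exact permutation test of its log2(CPM + 1) gave p = 0.0476 for each knockout against control (n = 5 and 5), without adjustment. H2-Ob (34238903 to 34254414), the beta chain, was at 3.41, 0.581, 0.751, 0.828 and 0.353 CPM in controls, at 7.58, 2.23, 1.84, 6.29 and 2.33 in Mettl3 KO and at 1.41, 2.35, 1.99, 7.73 and 1.52 in Mettl14 KO. The 21 reads in control replicate 1 were fewer than the 29.3 that its background density gives for the length of H2-Ob, while the 98 reads in Mettl14 KO replicate 4 stood against 12.1. The log2 fold change was 1.78 in Mettl3 KO (SE 0.72, edgeR adjusted p = 0.118) and 1.30 in Mettl14 KO (SE 0.72, edgeR adjusted p = 0.540), so neither was called. Without control replicate 1 these were 2.83 and 2.24, and without Mettl14 KO replicate 4 the latter was 0.60.

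Per kilobase of exon the order of the genes was much alike in the 3 groups. Cd74 led with 61.0 ± 63.0 CPM per kilobase in controls (SD, n = 5), 353 ± 185 in Mettl3 KO and 379 ± 346 in Mettl14 KO. The class II chains followed at 10.7 to 13.6 in controls and 63.0 to 96.8 in Mettl3 KO, with differences between the 3 chains inside their SD. The H2-DM genes had 2.04 to 2.84 CPM per kilobase in controls and 8.66 to 17.2 in Mettl3 KO. Ciita, a regulator of low abundance, was at 0.963 ± 0.497 and 6.75 ± 2.67, and H2-Oa and H2-Ob were lowest, at 0.200 and 0.220 in controls.

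**Figure D2:**
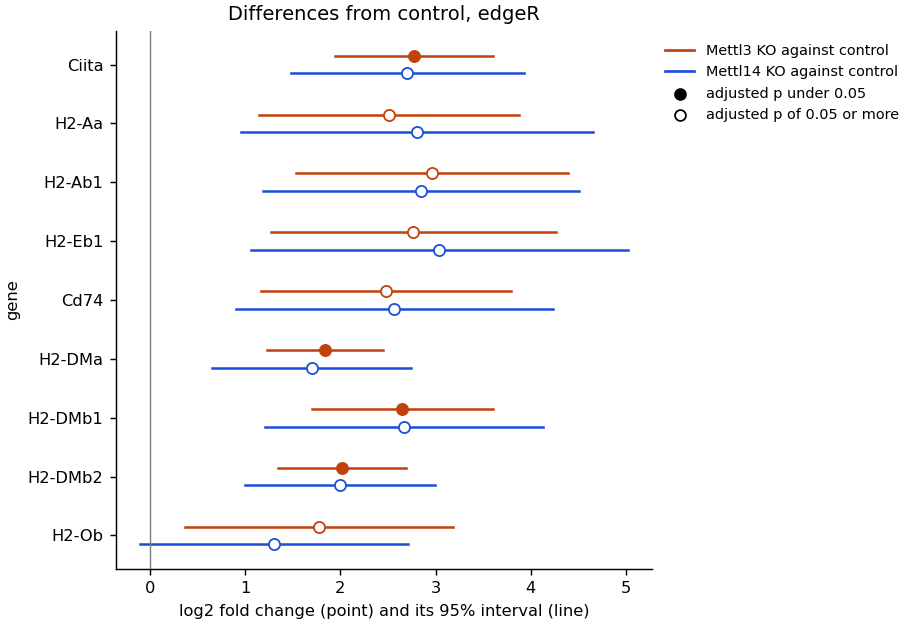
Log2 fold change of the 9 genes tested, with its 95% interval from the standard error, for each knockout against the same 5 controls; filled points passed the edgeR test at an adjusted p under 0.05. Estimates for both knockouts lie at similar values, from 1.78 to 2.97 for Mettl3 KO and from 1.30 to 3.04 for Mettl14 KO, and the Mettl14 KO lines are longer for most genes.

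Of the 10 genes, 8 had all Mettl3 KO tumors above all controls, and 1.76% of the 21427 genes tested were separated that way. For Mettl14 KO no gene was called at all by edgeR, 0 of 21555 (0.0%), while 2444 had an unadjusted p under 0.05 and DESeq2 called 505. Of the class II genes DESeq2 called 5 in Mettl14 KO: Ciita, H2-Ab1, H2-DMa, H2-DMb1 and H2-DMb2. All 9 tested had log2 fold changes above 0, with a median of 2.67 beside -0.09 over all genes. With Mettl14 KO replicate 5 left out, Ciita and H2-DMa passed edgeR, among 148 of 21827 genes called. Without control replicate 1, H2-Ob passed for Mettl14 KO, among 1054 of 21687 genes called. In the authors' deposited table the Mettl3 knockout had 9 of the 10 genes under an adjusted p of 0.05, and H2-Oa had no adjusted p. Of the 16160 genes with an adjusted p, 11.6% were under it. Log2 fold changes of the 10 ran from 1.99 to 3.26. For the Mettl14 knockout the authors' deposited table had 5 of the 10 under 0.05, and H2-Oa and H2-Ob had no adjusted p. Of the 16861 genes with an adjusted p, 2.98% were under it, and log2 fold changes of the 10 ran from 0.93 to 3.10.

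The knockouts were also compared directly, in a fit of all 15 libraries. No gene of 24566 was called by edgeR (0.0%), 3152 had an unadjusted p under 0.05, and DESeq2 called 65, none of them a class II gene. Ciita differed between Mettl3 KO and Mettl14 KO by 0.04 on the log2 scale, with a 95% interval from -0.97 to 1.05. For Cd74 the difference was -0.10, with an interval from -1.51 to 1.31, and for H2-DMa 0.14, from -0.81 to 1.08. Intervals of this width leave differences of 2-fold in either direction possible for Cd74 and the chains.

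The regulators upstream of Ciita were examined by a list of 9 genes of the interferon-gamma route. For Mettl3 KO, 1 of the 8 genes tested rose and none fell, where 0.406% of all genes tested rose and 0.835% fell. The median over the 8 was 0.04 on the log2 scale. Irf1, which binds the Ciita promoter, stood at 41.5 to 109 CPM in controls and 148 to 221 CPM in Mettl3 KO, which is 1.23 on the log2 scale (SE 0.25, edgeR adjusted p = 0.0463). No Mettl3 KO tumor overlapped the controls. The call is from the main fit, and whether Irf1 kept it under other settings is not given here. The receptor chains and kinases did not pass: log2 fold changes were -0.25 for Ifngr1, -0.28 for Ifngr2, -0.19 for Jak1 and 0.01 for Jak2. Irf2 (0.07), Usf1 (0.16) and the feedback inhibitor Socs1 (0.12) did not pass either. Ifng itself, the cytokine gene, was too low for the fit, at 0.101 to 1.95 CPM in controls and 1.01 to 5.29 in Mettl3 KO (two-sided exact permutation p = 0.0556, n = 5 and 5).

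In Mettl14 KO none of the 9 passed, where 0.0% of all genes tested did. The log2 fold change was 1.64 for Irf1 (SE 0.39, edgeR adjusted p = 0.186). The rest were 1.44 for Ifng, 0.09 for Ifngr1, 0.13 for Ifngr2, 0.35 for Jak1, 0.20 for Jak2, 0.46 for Irf2, 0.51 for Usf1 and 0.54 for Socs1. All 9 were above 0, and the median was 0.46 beside -0.09 over all genes tested.

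None of the 7 genes of the enhanceosome, on which CIITA docks, passed in either knockout. Of all genes tested, 1.24% passed in Mettl3 KO and 0.0% in Mettl14 KO, so no call among 7 genes says little about them. The regulatory factor X subunits had log2 fold changes of 0.22 (Rfx5), -0.32 (Rfxap) and 0.11 (Rfxank) in Mettl3 KO, and 0.36, -0.12 and -0.15 in Mettl14 KO. Creb1, which binds the X2 element, had -0.63 in Mettl3 KO (SE 0.19, edgeR adjusted p = 0.0594) and -0.26 in Mettl14 KO. The NF-Y subunits, which bind the Y box printed above, had -0.69 (Nfya), -0.58 (Nfyb) and -0.53 (Nfyc) in Mettl3 KO, with all 5 tumors below the control mean in each, and -0.10, -0.25 and -0.19 in Mettl14 KO. The list's median was -0.53 in Mettl3 KO and -0.15 in Mettl14 KO, beside -0.14 and -0.09 over all genes tested.

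Of 8 genes that process antigen or turn class II molecules over, 1 fell in Mettl3 KO and none rose, where 0.835% of all genes tested fell. This is from the main fit, in which 179 genes fell, beside 28 with RLE scaling and 16 with library totals. Whether the 1 gene kept its call under such settings is not given here. Ctsl, cathepsin L, which trims the invariant chain in thymic epithelium and degrades protein in lysosomes elsewhere, stood at 946 to 1890.2 CPM in controls and 571 to 904 in Mettl3 KO, a difference of -1.05 on the log2 scale (SE 0.21, edgeR adjusted p = 0.0430). Ctss, cathepsin S, which makes the last cuts in the invariant chain of antigen-presenting cells, had 0.63 (SE 0.35, edgeR adjusted p = 0.213) with 4 tumors inside the control range. Ifi30, a lysosomal thiol reductase, had 0.47, and Ctsb and Lgmn, lysosomal proteases, -0.19 and -0.29. Sppl2a, which clears the last Cd74 fragment from the membrane, had -0.27. The ubiquitin ligases that take class II molecules off the surface had 0.74 (March1, edgeR adjusted p = 0.0937) and -0.64 (March8, edgeR adjusted p = 0.0638). For Mettl14 KO the 8 log2 fold changes were 0.39 for Ctsb, -0.47 for Ctsl, 0.91 for Ctss, 0.86 for Ifi30, 0.26 for Lgmn, 0.87 for March1, -0.32 for March8 and 0.14 for Sppl2a, and none passed.

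**Figure D3:**
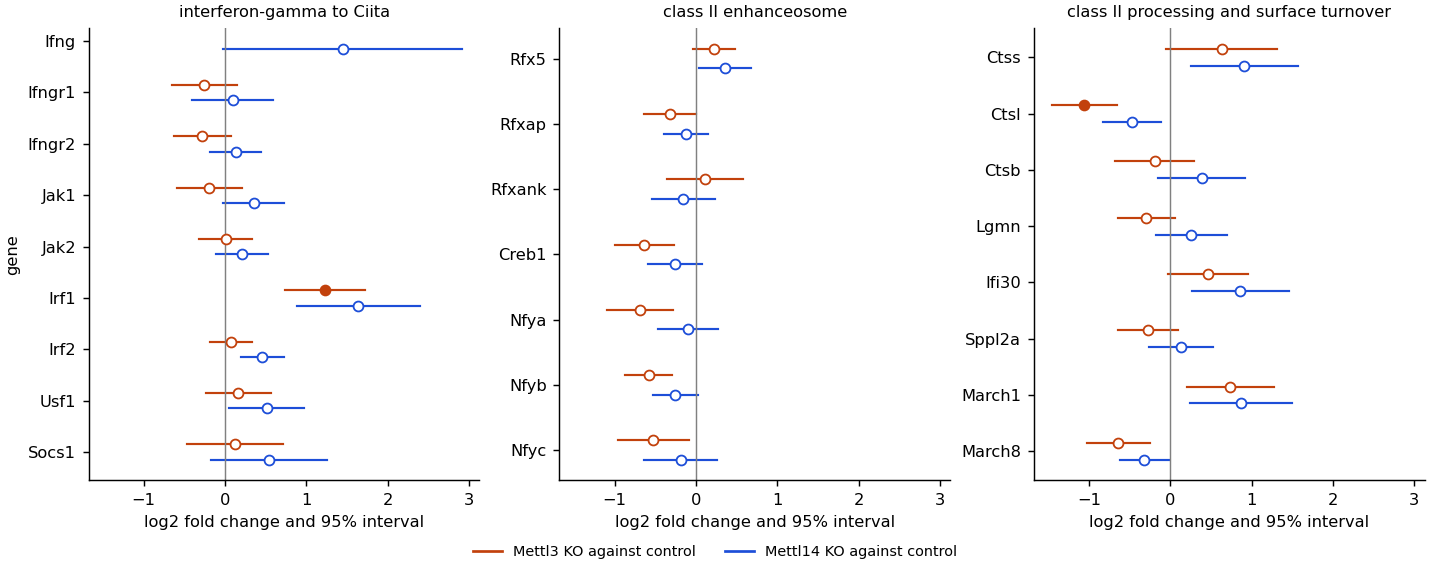
Log2 fold changes with 95% intervals of the genes upstream of Ciita, of the enhanceosome and of antigen processing, for both knockouts against control; filled points passed the edgeR test, and Ifng was not tested in Mettl3 KO. Irf1 (1.23) and Ctsl (-1.05) in Mettl3 KO are the filled points, and most others lie within 1 unit of 0.

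Receptors of class II molecules and costimulatory genes made up a list of 5. Cd4, the class II coreceptor, had a log2 fold change of 1.47 in Mettl3 KO and 1.14 in Mettl14 KO, Lag3, an inhibitory class II receptor, 1.30 and 1.33, and Cd40, through which CD4+ T cells license antigen-presenting cells, 1.50 and 1.41. The costimulatory ligands had -0.42 and 0.02 (Cd80) and 0.31 and 0.47 (Cd86). None of the 5 passed in either knockout, where 1.24% (Mettl3 KO) and 0.0% (Mettl14 KO) of all genes tested did. H2-Eb2, a class II beta chain gene of low expression, had an r of 0.167 with Cd74 over the 15 libraries, with 0.735 ± 0.921 CPM in controls and 1.67 ± 0.467 in Mettl3 KO (SD, n = 5). The difference, 1.23 on the log2 scale (SE 0.91), did not pass (edgeR adjusted p = 0.323).

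Leukocyte markers lay higher in many of the same tumors. In bulk tumor RNA, more class II expressing cells and more class II RNA per cell cannot be told apart. Summed over 5 pan-leukocyte markers, levels ran from 172 to 377 CPM in controls, 387 to 897 in Mettl3 KO and 269.5 to 1333 in Mettl14 KO. The 10 T cell markers summed to 14.7 to 49.96, 60.5 to 186 and 35.2 to 302 CPM. The 10 dendritic cell markers summed to 81.1 to 115, 102 to 167 and 88.6 to 192, the 8 B cell markers to 7.93 to 47.9, 20.0 to 110.1 and 20.7 to 91.1, and the 10 macrophage markers to 749 to 1367, 709 to 1632 and 1019 to 2795. T cell and pan-leukocyte sums in Mettl3 KO did not overlap the controls, whereas the other sums did. A sum follows its most abundant genes: Fscn1 gave 59.4 CPM of a mean dendritic cell sum of 102 in controls, and had -0.61 in Mettl3 KO. Median log2 fold changes of the markers tested in Mettl3 KO were 1.46 (T cell), 1.34 (B cell), 1.32 (dendritic cell), 0.51 (pan-leukocyte) and 0.06 (macrophage). No marker of these 5 lists was called in either knockout, where 1.24% (Mettl3 KO) and 0.0% (Mettl14 KO) of all genes tested were. Ms4a1 and Blk, 2 of the B cell markers, had no read in control replicate 3, and every other immune marker had reads in every library. The part of these cells in the class II differences was not tested. The ratios to Ptprc below do not test it either, because all leukocytes express Ptprc, whether or not they express class II genes. The 6 fibroblast markers summed to 1347 to 3169 CPM in controls, 1219.95 to 4207 in Mettl3 KO and 1841 to 7443 in Mettl14 KO, where replicates 1 and 4, the highest in class II RNA, had 5986 and 7443. Of the 6 epithelial markers 4 had log2 fold changes above 0 in Mettl3 KO, with a median of 0.46: Epcam 1.22, Krt8 0.72, Cdh1 0.52 and Krt19 0.40, none of which passed. Krt18 had -0.89 and did not pass, and Krt20 fell (-1.76, SE 0.28, edgeR adjusted p = 0.0217). The call of Krt20 is likewise from the main fit alone. Epcam and Krt8, defining markers of epithelium, were at most 6.20 and 4.57 CPM in any tumor.

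To set class II RNA beside the leukocyte RNA of the same tumor, 3 genes were divided by Ptprc, which encodes CD45, a surface protein of all leukocytes. Ptprc itself had 92.3, 178, 203, 147 and 115 CPM in controls, 528, 215, 266, 229.8 and 244 in Mettl3 KO, and 289, 286, 222, 710.1 and 133 in Mettl14 KO. Its log2 fold change was 0.97 in Mettl3 KO (SE 0.30, edgeR adjusted p = 0.0629) and 1.10 in Mettl14 KO (SE 0.37, edgeR adjusted p = 0.292). The Ciita, Cd74 and H2-DMa ratios were compared with control by two-sided exact permutation tests of log2 ratios (1 CPM added to each level), with 6 tests adjusted together and 0.00794 as the smallest p that 5 against 5 samples allow.

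Ciita was higher relative to Ptprc in all 5 Mettl3 KO tumors than in any control. The log2 ratios were -2.72, -4.89, -3.88, -3.54 and -4.82 in controls and -2.30, -2.20, -2.62, -1.79 and -1.98 in Mettl3 KO, a difference of 1.79 (exact permutation p = 0.00794, adjusted 0.0317). In Mettl14 KO they were -1.67, -2.11, -3.44, -2.50 and -3.34, a difference of 1.36 (exact permutation p = 0.0397, adjusted 0.0595). Cd74 had a difference of 2.07 in Mettl3 KO (exact permutation p = 0.0159, adjusted 0.0317), with 4 of 5 tumors above all controls, and of 1.60 in Mettl14 KO (exact permutation p = 0.0714, adjusted 0.0857). H2-DMa differed least, by 0.81 in Mettl3 KO (exact permutation p = 0.0159, adjusted 0.0317), again with 4 of 5 tumors above all controls, and by 0.29 in Mettl14 KO (exact permutation p = 0.468, adjusted 0.468). With Laptm5, another leukocyte gene, in place of Ptprc, the 3 Mettl3 KO ratios also passed and that of Ciita in Mettl14 KO did too (1.54, adjusted exact permutation p = 0.0476). The 3 Mettl3 KO ratios lost their call, with adjusted p of 0.0595 or 0.0635, without Mettl3 KO replicate 1, 2, 4 or 5 and without control replicate 2 or 5, and those of Cd74 and H2-DMa also without control replicate 4 and 3, respectively. For Ciita the Mettl3 KO tumors were above all controls with every library kept, so leaving 1 out could not bring an overlap. Its exact permutation p was then fixed at the smallest that 4 against 5 libraries allow, which is above 0.00794. The lost calls of Ciita therefore carry no information on overlap.

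**Figure D4:**
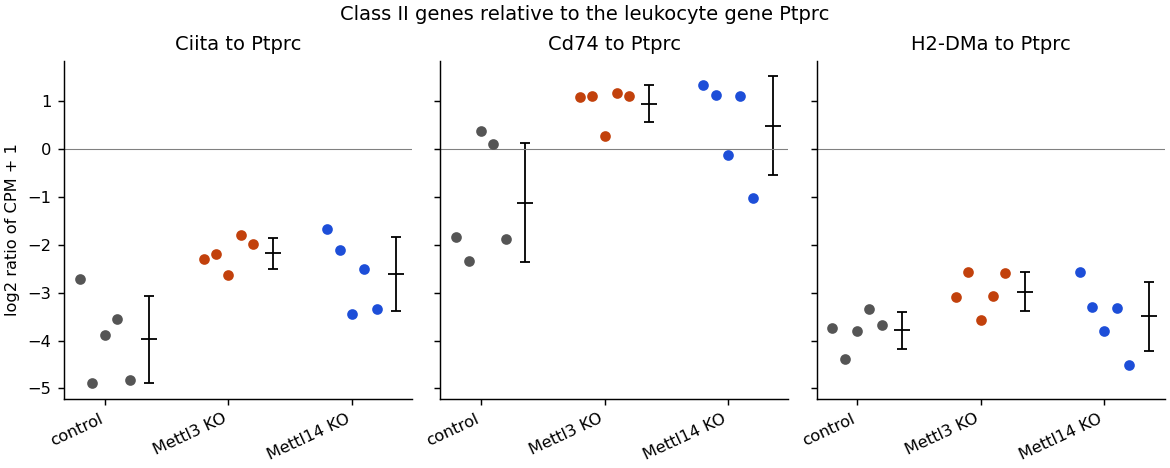
Log2 ratio of Ciita, Cd74 and H2-DMa to Ptprc (1 CPM added to each) in every library, with the mean ± SD of each group beside the points. For Ciita the Mettl3 KO tumors lie between -2.62 and -1.79, above the highest control at -2.72, and for H2-DMa the Mettl14 KO tumors cover the whole range of the controls.

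The class II genes moved together from tumor to tumor. Over the 15 libraries, which share the same scaling, the pairwise Pearson r among the 8 genes other than H2-Oa and H2-Ob ran from 0.907 to 0.998, with a median of 0.960. With group means removed it still ran from 0.833 to 0.998. The tightest partners of Cd74 were H2-Eb1 (r = 0.996), H2-Aa (0.992) and H2-Ab1 (0.990), the genes whose products Cd74 escorts, and H2-Ea-ps, the E alpha gene, had 0.993. H2-Ob (0.612) and H2-Oa (0.639) followed Cd74 least. These correlations describe 15 libraries that differ in depth and background.

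The fitted slopes on Cd74 differed among the genes. The 1 CPM added to each level flattens the slope of genes at a few CPM, such as H2-Ob. How much of the differences in slope this makes was not tested. Per doubling of Cd74 + 1, the level + 1 of H2-Eb1 changed by 1.12 on the log2 scale, of H2-Aa by 1.02 and of H2-Ab1 by 1.03. H2-DMb1 changed by 0.79, Ciita by 0.76, H2-DMa by 0.57 and H2-DMb2 by 0.52, and H2-Ob by 0.27. Ptprc had 0.35. The ratio of H2-Aa to Cd74 reads was 38.6% to 41.3% in the 5 controls, although Cd74 itself varied 10.5-fold there. It was 31.8% to 48.8% in Mettl3 KO and 27.9% to 57.6% in Mettl14 KO. The ratio of Ciita to Cd74 reads was 4.88% to 52.3% in controls, highest in control replicate 1, and 9.43% to 13.2% in Mettl3 KO.

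**Figure D5:**
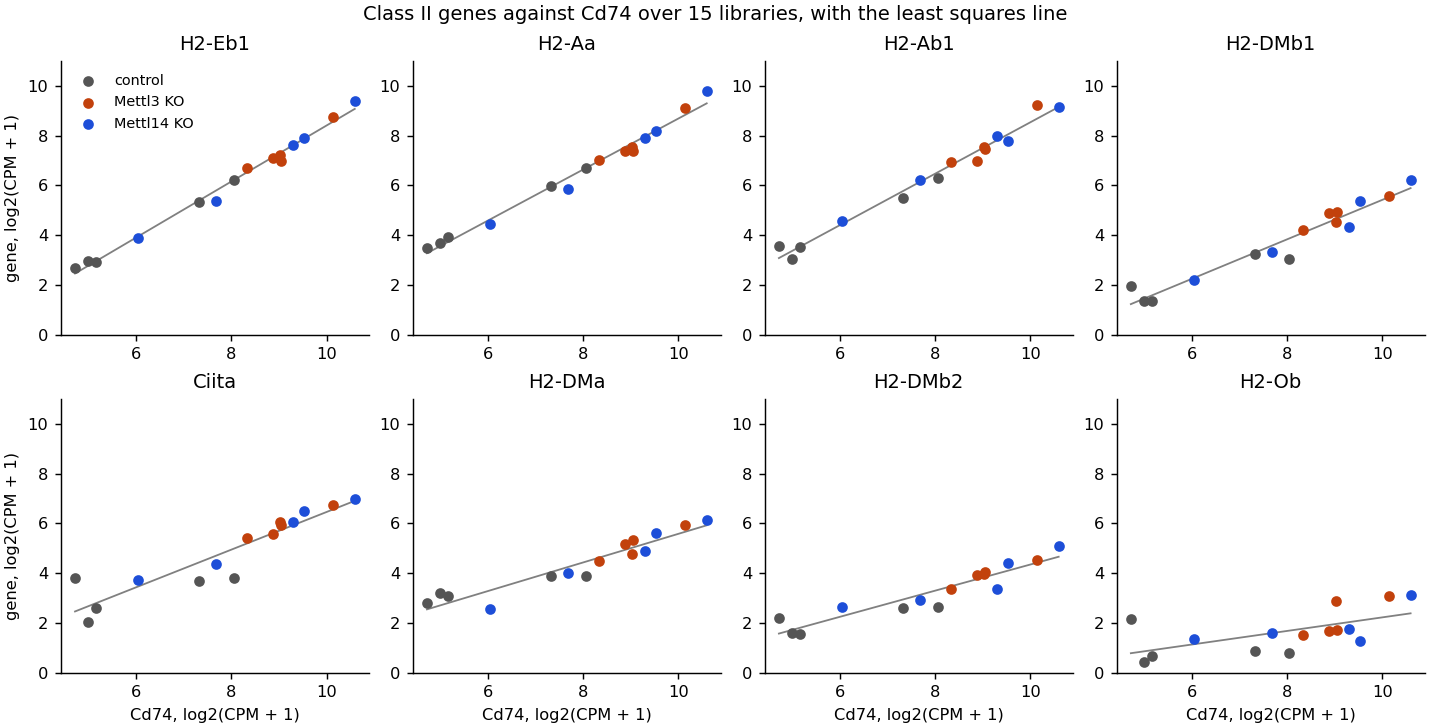
Levels of 8 class II genes against Cd74 in the 15 libraries, both as log2(CPM + 1), with least squares lines; colours give the groups. The class II chains follow Cd74 with slopes of 1.02 to 1.12, the H2-DM genes and Ciita with 0.52 to 0.79, and H2-Ob with 0.27; control replicate 1, the leftmost point, lies above the line for Ciita and H2-Ob.

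Across markers, Cd74 had an r of 0.872 with the summed T cell markers, 0.834 with the pan-leukocyte, 0.775 with the dendritic cell, 0.559 with the B cell and 0.345 with the macrophage markers over the 15 libraries. With group means removed these were 0.768, 0.784, 0.800, 0.244 and 0.544. Outside the leukocytes, r was 0.559 with the summed fibroblast, 0.053 with the endothelial and -0.71 with the epithelial markers, and 0.650, 0.428 and -0.30 with group means removed. The epithelial sum was mostly Krt20, at 187 CPM of a mean sum of 211 in controls and 57.7 of 81.5 in Mettl3 KO. Its r therefore describes Krt20 more than epithelial content.

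Genes whose pattern was most like that of Ciita were sought among 17054 protein-coding genes with a mean of at least 1 CPM, class II genes left out. The 8 with the highest Pearson r over the 15 libraries were Gm12185 (0.987), Ubd (0.981), Gbp10 (0.980), Slamf8 (0.977), Gbp5 (0.972), Gm4841 (0.968), Apol6 (0.968) and Gbp8 (0.966). Ubd encodes a ubiquitin-like modifier, the Gbp genes guanylate-binding proteins, Slamf8 a surface receptor of myeloid cells and Apol6 an apolipoprotein L. Mean levels of Ubd were 2.88 CPM in controls, 22.9 in Mettl3 KO and 18.8 in Mettl14 KO. Within the class, H2-DMb2 (0.966) and H2-DMb1 (0.964) were nearest to Ciita, with 8 and 9 other genes ahead of them, whereas 58 genes were ahead of Cd74 and 93 ahead of H2-DMa.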

How the data were processed

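Raw counts for each Ensembl gene were deposited by the authors, 1 table a knockout with the same 5 control columns, and a table of log2 fold changes with p-values. HTSeq 0.11.2, DESeq2, HISAT2 2.1.0, cutadapt 1.18 and the mm10 build are named in the submitters' processing notes; strand setting and annotation release were not found there, so reads of overlapping and antisense genes cannot be told apart. The fold changes (log2) and p-values of the authors' deposited table are printed only where it is named. Lines for reads assigned to no gene, 56.8% to 86.2% of a library, were left out.

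Counts went through edgeR's quasi-likelihood test (edgeR 4.0.16 under R 4.3.3, filterByExpr minimum count 10, TMM, robust dispersion, threshold 0.05), on 10 libraries for each knockout and 15 for their contrast; the fit was tested on simulated data. The filter left 9 of the 10 genes. CPM use TMM factors of the filtered genes, and correlations and ratios use log2(CPM + 1). Gene positions and exon lengths come from GENCODE M21. All 30 replicate pairs differed by more than sampling noise. Named were the 10 genes, Ptprc and Laptm5, listed genes that passed, all genes of the 3 pathway lists and the 8 genes most like Ciita; a few others were added after their values were seen. The 10 genes and the lists (102 of 103 genes found; 1 further gene is not reported here) were chosen with earlier results of these data known. Alternatives were RLE scaling, library totals, 2 other filters, DESeq2 1.42.0, limma 3.58.1 voom, a replicate block, 1 fit of 15 libraries, each library left out and, chosen after seeing the data, counts less the background density.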

Additional observations from a re-analysis of the deposited data

Results flagged for a closer look

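In a group of 5 libraries, a highest or lowest value was marked when its gap to the nearest other value exceeded 0.71 of the whole range (Dixon's 95% criterion). Of 39 groups examined, 7 had such a value. The criterion's rate of 1 in 20 holds for independent groups of normally distributed values. Genes that move together, in CPM without logarithm, are not such groups, so the 7 cannot be set against that rate. The highest Mettl3 KO library, replicate 1, stood apart for H2-Aa (551 CPM, next 185), H2-Ab1 (605, next 187), H2-Eb1 (427, next 147) and Cd74 (1128, next 527). H2-Ob stood apart in control replicate 1 (3.41 CPM, next 0.828), which also had the highest background density, and in Mettl14 KO replicate 4 (7.73, next 2.35). The log2 ratio of Cd74 to Ptprc was lowest in Mettl3 KO replicate 3 (0.27, next 1.09). Without Mettl3 KO replicate 1 the log2 fold change of Cd74 was 2.26.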

How the results depend on the processing

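The log2 fold changes of the 9 genes tested stayed above 0 in both knockouts under every alternative run, except that H2-Ob was not tested with background-subtracted counts. The number of class II genes called in Mettl3 KO (4) became 8 with DESeq2, 9 with limma voom, 9 with the replicate block and 0 with all 15 libraries in 1 fit, and ran from 0 (without control replicate 2) to 9 (without control replicate 1) when 1 library was left out. In Mettl14 KO (0) it became 5 with DESeq2 and 0 to 2 with 1 library left out. Genes called in Mettl3 KO (266) became 2504 with DESeq2, 100 with RLE scaling, 122 with library totals, 81 with a mean of at least 1 CPM, 62 with no filter, 5089 with voom, 6002 with the replicate block, 42 with 1 fit, 576 with background-subtracted counts, and 35 to 11625 with 1 library left out. In Mettl14 KO (0) they became 505 with DESeq2, 47 with no filter, 14 with the replicate block, 50 with 1 fit and 0 to 1054 with 1 library left out, and between the knockouts (0) 65 with DESeq2 and 0 to 1 with 1 library left out. The block rests on numbers that did not pair the samples: same-numbered libraries correlated from -0.75 to 0.62 and none correlated best with its own number. The cause of these changes was not tested.

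The ratios to Ptprc kept their direction. With 1 library left out, Ciita ran from 1.56 to 2.11 and 1.12 to 1.67 (Mettl3 KO, Mettl14 KO), Cd74 from 1.76 to 2.44 and 1.30 to 1.98, and H2-DMa from 0.66 to 0.96 and 0.06 to 0.55. With Laptm5, Ciita in Mettl14 KO was 1.54.

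Between the knockouts no class II gene was called, and differences near 0 changed sign. With voom they were 0.48 (Cd74), 0.49 (H2-Aa), 0.53 (H2-DMb1) and 0.56 (H2-Eb1), with the replicate block 0.37, 0.30, 0.54 and 0.31, and with background-subtracted counts 0.43, 0.25, 0.42 and 0.27. With no filter they were -0.20 (Ciita), -0.19 (H2-Ab1), -0.081 (H2-DMa) and -0.21 (H2-DMb2), with library totals -0.0033 (Ciita), -0.015 (H2-Ab1) and -0.011 (H2-DMb2), and with the knockouts alone 0.045 (H2-DMb1). With 1 library left out they ran from -0.44 to 0.64 (Cd74), -0.24 to 0.56 (Ciita), -0.85 to 0.76 (H2-Aa), -0.54 to 0.86 (H2-Ab1), -0.093 to 0.71 (H2-DMa), -0.32 to 0.76 (H2-DMb1), -0.23 to 0.64 (H2-DMb2) and -0.81 to 0.72 (H2-Eb1).

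Depth limits H2-Oa and H2-Ob, which had at most 21 and 98 reads in a library.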
